A study of Homo sapiens with 6 samples.

Results

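The genes described here encode the NF-kB transcription factors and the proteins that switch them off again. They were the 10 genes whose Ensembl identifiers in the deposited count table map to the 5 NF-kB subunits (NFKB1, NFKB2, RELA, RELB and REL), the 3 classical IkB inhibitors (NFKBIA, NFKBIB and NFKBIE) and 2 feedback regulators (TNFAIP3 and BIRC3), of 40295 genes in the table. They were chosen by name, with no cut on their values, but with earlier results of these data known. HDQ-P1, an established human breast carcinoma cell line, was sequenced as 6 RNA libraries. Cells exposed to 1 µM Y-320 for 48 h gave 3 of these libraries and untreated cells gave the other 3, and both groups shared the cell line and the serum-containing medium. Y-320 is a small molecule that the study examined as an enhancer of readthrough at premature stop codons, and the sequencing asked which transcripts differ between cells with and without it. No source used here says that the untreated cells were given the solvent of the compound, so compound and solvent cannot be told apart. The sources used here do not state whether the replicates came from separate cultures, so the p-values measure the spread between these libraries, which may be technical.

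NF-kB factors are dimers of Rel-family proteins that bind kappa B sites in DNA. In the canonical pathway, which tumor necrosis factor, interleukin-1 and Toll-like receptors switch on, the IKK complex phosphorylates an IkB protein, the IkB is degraded, and dimers such as RELA with p50 (made from NFKB1) enter the nucleus. In the non-canonical pathway, the kinase NIK accumulates and induces the processing of the NFKB2 precursor to p52, which pairs with RELB. Several genes of the pathway are themselves NF-kB targets, among them the inhibitors NFKBIA and TNFAIP3, so that the response limits itself. For the comparison below, NFKB1, RELA, REL, NFKBIA, NFKBIB, NFKBIE and TNFAIP3 were counted as canonical members, and NFKB2, RELB and BIRC3 as non-canonical members. BIRC3 acts on both sides, since it marks NIK for degradation together with TRAF2 and TRAF3 and also attaches ubiquitin to RIPK1 at the tumor necrosis factor receptor.

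The kappa B site is the sequence these factors recognize, and the promoters of most of the genes hold a match to its consensus. Promoter sequences from RefSeq (build GRCh38.p14), each reaching 250 bases upstream of an annotated start, were listed for 8 of the 10 genes as 13 promoters in all, because a gene can have several starts. A match to the kappa B consensus on either strand lay in 8 of the 13, belonging to 7 genes, whereas 5.21% of the 250-base windows of all 35116 promoters in the same table held one. RELB and NFKBIE were not in this table. These matches are letters in a window and no measure of binding, and neither window of RELA held the consensus.

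All 10 genes rose with Y-320, and matches also lay in promoters of NFKB1, REL and NFKBIB. The genes chosen for display below had larger log2 fold changes (0.92 to 2.07) than NFKB1, REL and NFKBIB (0.28, 0.33 and 0.47). RELA, with no match in its windows, rose by 0.60. Whether a match goes with the size of a rise was not tested. The promoter stretches of 4 genes are shown as examples, each with at least 1 consensus match, in capitals. They are the stretches upstream of NFKBIA (chr14:35404750-35404999, minus strand), TNFAIP3 (chr6:137867009-137867213, plus strand), NFKB2 (chr10:102395455-102395693, plus strand) and BIRC3 (chr11:102317234-102317483, plus strand), written 5′ to 3′ on the strand of the gene. The TNFAIP3 and NFKB2 stretches were cut short where an annotated exon begins, and the last base of the last NFKB2 match is the first base of such an exon.
NFKBIA: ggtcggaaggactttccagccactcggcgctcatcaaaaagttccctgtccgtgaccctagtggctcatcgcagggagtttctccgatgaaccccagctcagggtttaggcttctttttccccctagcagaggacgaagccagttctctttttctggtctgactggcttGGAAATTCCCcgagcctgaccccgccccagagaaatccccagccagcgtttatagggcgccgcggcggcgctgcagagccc
TNFAIP3: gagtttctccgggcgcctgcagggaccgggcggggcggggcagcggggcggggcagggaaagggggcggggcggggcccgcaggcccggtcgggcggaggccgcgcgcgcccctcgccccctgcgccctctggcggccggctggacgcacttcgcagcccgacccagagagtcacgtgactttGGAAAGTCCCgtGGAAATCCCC
NFKB2: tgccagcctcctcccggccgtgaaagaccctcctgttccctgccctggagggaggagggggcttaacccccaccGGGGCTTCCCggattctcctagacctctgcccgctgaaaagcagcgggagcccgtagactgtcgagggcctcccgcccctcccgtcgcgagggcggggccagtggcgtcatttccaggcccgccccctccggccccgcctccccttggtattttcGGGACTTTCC
BIRC3: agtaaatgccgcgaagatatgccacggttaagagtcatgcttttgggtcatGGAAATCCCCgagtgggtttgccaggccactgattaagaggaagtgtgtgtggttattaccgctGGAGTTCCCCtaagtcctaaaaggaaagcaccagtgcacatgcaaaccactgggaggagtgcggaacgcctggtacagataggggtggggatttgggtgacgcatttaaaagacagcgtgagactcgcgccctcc
In TNFAIP3 both matches read on the opposite strand and began 67 and 55 bases before the RefSeq start, which lies downstream of the start of the gene in GENCODE. The second NFKB2 promoter, not printed, held GGGAATTCCC at chr10:102394471-102394480 and GGGGCTTTCC at chr10:102394500-102394509. The remaining matches were GGGAATTTCC in NFKB1 (chr4:102501310-102501319), GGGAAATTCC in REL (chr2:60881527-60881536) and GGGAATTTCC in NFKBIB (chr19:38899941-38899950). NFKB1 and NFKBIB thus held the same 10 letters.

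All 10 genes were expressed in untreated cells and all 10 rose with Y-320. In each, the 3 treated libraries lay above the 3 untreated libraries. The rise passed the threshold for every gene in edgeR's quasi-likelihood test (Benjamini-Hochberg adjusted p under 0.05 over 16580 genes tested). The same rule called 26.2% of all genes tested higher and 25.4% lower, 51.5% together. In 29.8% all 3 treated libraries lay above all 3 untreated ones, and in 29.4% they lay below, so that a rise that passed the test was common in these libraries. What set the members apart from one another was the size of the rise, which ran from 1.22-fold for NFKB1 to 5.17-fold for RELB. A rise of at least 2-fold that passed the test was found for 2.43% of all genes and for 5 of the 10 members, namely RELB, TNFAIP3, BIRC3, NFKB2 and NFKBIE. A log2 fold change of at least 0.5 that passed the test was found for 8.44% of all genes and for 7 members, the same 5 with NFKBIA and RELA. The median log2 fold change was 0.98 over the members and 0.00 over all genes tested. The lowest value of any member was 67 counts, in RELB in untreated replicate 3, so all 10 passed the filter on low counts in both groups.

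**Figure D1:**
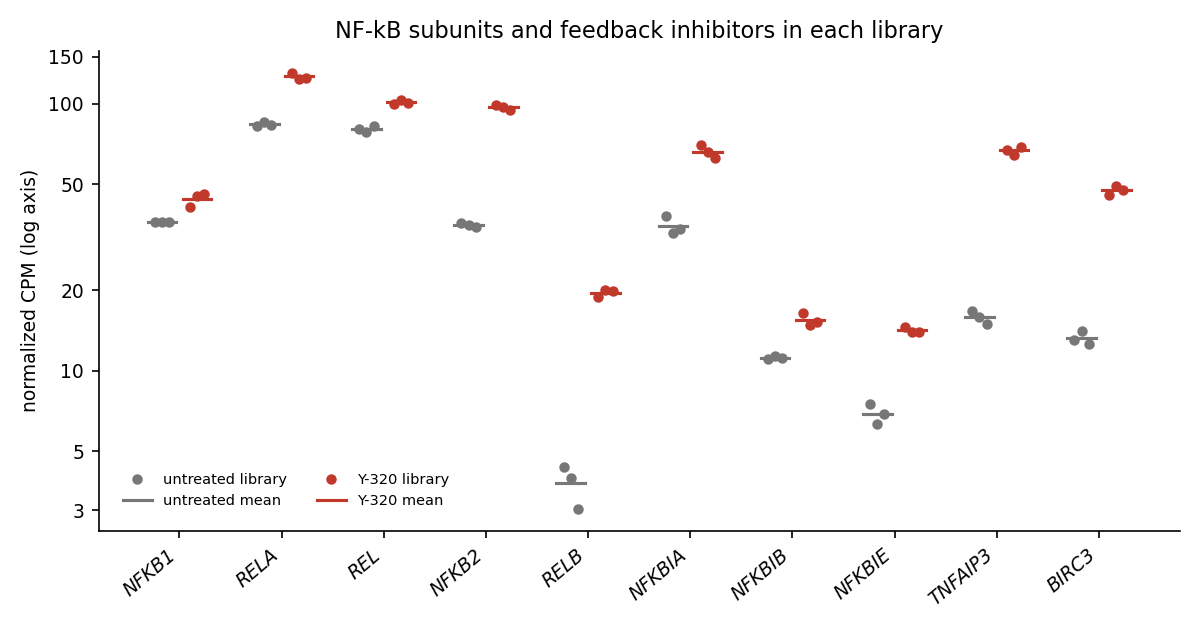
Normalized CPM (log axis) of the 10 genes in the 3 untreated (grey) and 3 Y-320 (red) libraries, with points for libraries and lines for group means. The treated points lie above the untreated points of the same gene throughout, with the widest gap for RELB and the narrowest for NFKB1.

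RELA (chr11:65653599-65663090, minus strand) encodes p65, the subunit of the canonical dimer that carries a transactivation domain. It was measured at 82.9, 85.6 and 83.2 CPM (the counts of a gene relative to the total of its library, scaled between libraries) in untreated replicates 1 to 3 and at 131.1, 124.5 and 124.6 CPM in Y-320 replicates 1 to 3. The treated group stood 1.51-fold higher, at 126.7 ± 3.76 against 83.9 ± 1.49 CPM (SD, n = 3 per group), and the log2 fold change was 0.60 (SE 0.032, edgeR adjusted p = 1.31e-07). Its 2 groups were far apart compared with the spread within them, and 7.29% of all genes tested had a larger log2 fold change.

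NFKB1 (chr4:102501330-102617302, plus strand) encodes p105, the precursor of p50, which partners RELA. It was measured at 36.0, 36.2 and 36.1 CPM in untreated cells and at 41.1, 45.1 and 45.9 CPM with Y-320. The untreated libraries were nearly equal, and the treated ones differed more among themselves, with replicate 1 lowest. The rise was 1.22-fold, a log2 fold change of 0.28 (SE 0.047, edgeR adjusted p = 5.03e-04), and 20.1% of all genes rose by more.

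REL (chr2:60881491-60931612, plus strand) encodes c-Rel, a subunit best known from lymphocytes. Its values were 80.9, 78.5 and 82.4 CPM in untreated cells and 100.4, 103.7 and 100.9 CPM with Y-320. This was a 1.26-fold rise, with a log2 fold change of 0.33 (SE 0.031, edgeR adjusted p = 7.48e-06). Of the 31-base words of REL transcripts, 37.6% also occur in other genes. The gene sharing most is an annotated long non-coding RNA gene that lies within REL on the same strand. It is not a row of the table, so the level of REL could include its reads.

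NFKBIA (chr14:35401079-35404749, minus strand) encodes IkB alpha, the inhibitor that is degraded and resynthesized fastest after stimulation. It was measured at 38.0, 32.8 and 34.0 CPM in untreated cells and at 70.03, 65.95 and 62.8 CPM with Y-320. The treated libraries were all above the highest untreated one, and the mean rose 1.89-fold, from 34.9 ± 2.68 to 66.3 ± 3.64 CPM. The log2 fold change was 0.92 (SE 0.058, edgeR adjusted p = 4.46e-07).

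NFKBIE (chr6:44258166-44265788, minus strand) encodes IkB epsilon, another inhibitor that NF-kB is known to induce. It stood at 7.52, 6.33 and 6.89 CPM in untreated cells and at 14.6, 13.96 and 13.9 CPM with Y-320, a 2.05-fold rise (log2 fold change 1.03, SE 0.080, edgeR adjusted p = 2.17e-06). Its 95% interval, 0.86 to 1.21, overlapped that of NFKBIA, 0.79 to 1.05. NFKBIB (chr19:38899700-38908893, plus strand), which encodes IkB beta, rose less. It was measured at 11.1, 11.4 and 11.2 CPM in untreated cells and at 16.5, 14.9 and 15.3 CPM with Y-320, a 1.39-fold rise (log2 fold change 0.47, SE 0.065, edgeR adjusted p = 1.43e-04). The row of NFKBIB held the same values in every library as a second row that has no gene name, so reads may have been divided between these rows and the level of NFKBIB is uncertain. Exons of NFKBIB also overlap those of SIRT2 on the opposite strand, and whether the counting used strand is not given in the sources used here. SIRT2 itself was measured at 238, 237 and 233 counts in untreated cells and at 306, 275 and 289 counts with Y-320.

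TNFAIP3 (chr6:137867214-137883314, plus strand) encodes A20, a ubiquitin-editing enzyme that shuts off signaling to IKK. It was at 16.8, 15.9 and 15.04 CPM in untreated cells and at 67.1, 64.5 and 69.2 CPM with Y-320. The lowest treated library was far above the highest untreated one. The mean rose 4.21-fold, from 15.9 ± 0.860 to 66.9 ± 2.35 CPM (log2 fold change 2.07, SE 0.049, edgeR adjusted p = 7.65e-10), and 0.362% of all genes tested rose by more. TNFAIP3 was the canonical member with the largest rise.

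NFKB2 (chr10:102394110-102402524, plus strand) encodes p100, which holds RELB in the cytoplasm and is the precursor of p52. Untreated cells had 35.8, 35.1 and 34.7 CPM, and treated cells had 99.4, 97.4 and 94.9 CPM. The mean rose 2.76-fold, from 35.2 ± 0.553 to 97.2 ± 2.21 CPM, with a log2 fold change of 1.47 (SE 0.034, edgeR adjusted p = 7.52e-10). All treated libraries were above all untreated ones by a wide margin, and 1.10% of all genes tested rose by more.

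RELB (chr19:45001461-45038192, plus strand) encodes the partner of p52. It was the least abundant member in untreated cells, at 4.35, 3.98 and 3.04 CPM, and it stood at 18.9, 20.05 and 19.9 CPM with Y-320. The rise was 5.17-fold (log2 fold change 2.37, 95% interval 2.13 to 2.60, SE 0.106, edgeR adjusted p = 3.98e-08), and 0.217% of all genes tested rose by more. Since the untreated libraries held few counts, its error was also the widest of the 10 genes.

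BIRC3 (chr11:102317484-102339403, plus strand) encodes cIAP2, a ubiquitin ligase. It was at 13.05, 14.05 and 12.6 CPM in untreated cells and at 45.6, 49.2 and 47.7 CPM with Y-320. The mean rose 3.60-fold, from 13.2 ± 0.760 to 47.5 ± 1.79 CPM (log2 fold change 1.85, SE 0.053, edgeR adjusted p = 2.40e-09). BIRC2, the closely related cIAP1 gene next to it on the chromosome, rose from 66.0 to 80.6 CPM, a log2 fold change of 0.29 (SE 0.036, edgeR adjusted p = 7.43e-05).

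**Figure D2:**
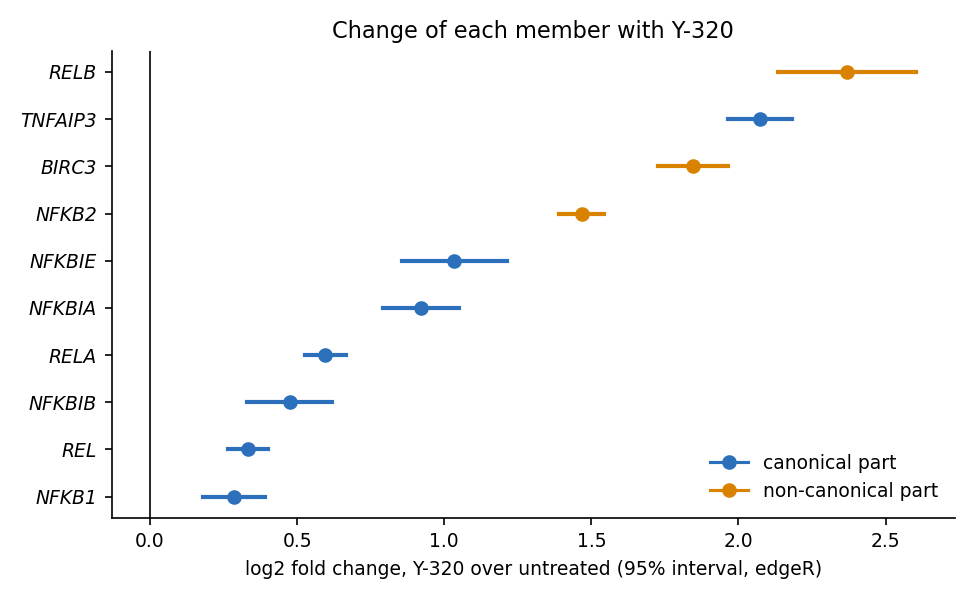
Log2 fold change of each gene, Y-320 over untreated, as points with 95% intervals from edgeR, with canonical members in blue and non-canonical members in orange. The 3 non-canonical members lie between 1.47 and 2.37, and among the canonical members TNFAIP3 alone, at 2.07, lies in that range.

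Ordered by log2 fold change, the genes ran RELB, TNFAIP3, BIRC3, NFKB2, NFKBIE, NFKBIA, RELA, NFKBIB, REL and NFKB1, as in the plot of changes with their intervals. The 95% intervals of neighbours overlapped between RELB and TNFAIP3, TNFAIP3 and BIRC3, NFKBIE and NFKBIA, RELA and NFKBIB, NFKBIB and REL, and REL and NFKB1. They did not overlap between BIRC3 and NFKB2, between NFKB2 and NFKBIE, or between NFKBIA and RELA.

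The non-canonical members had larger log2 fold changes than the canonical ones by the median. Their median log2 fold change was 1.85, with a range of 1.47 to 2.37, against a median of 0.60 and a range of 0.28 to 2.07 for the 7 canonical members. Within each library, the mean log2 CPM of the non-canonical members minus that of the canonical members is free of the scaling of the library. This difference was -1.13, -1.07 and -1.27 in untreated replicates 1 to 3 and -0.13, -0.04 and -0.08 in Y-320 replicates 1 to 3. The groups did not overlap, and the mean moved from -1.16 ± 0.10 to -0.08 ± 0.046, a shift of 1.07 log2 units. The shift was 1.10 without BIRC3, the member that serves both pathways, and 1.28 without TNFAIP3. It is given as a description without a test, because the members were assigned to the pathways with results of these data known.

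Levels of different genes were compared as CPM per kilobase of the Ensembl canonical transcript. In untreated cells RELA was highest, at 33.3 ± 0.592 CPM per kilobase. NFKBIA followed at 22.4 ± 1.72, NFKB2 at 11.7 ± 0.184, NFKBIB at 9.41 ± 0.135, NFKB1 at 8.90 ± 0.0236 and REL at 7.26 ± 0.174 CPM per kilobase. The 4 lowest were TNFAIP3 at 3.41 ± 0.184, NFKBIE at 2.95 ± 0.254, BIRC3 at 1.92 ± 0.111 and RELB at 1.68 ± 0.300 CPM per kilobase. BIRC3 and RELB were the only neighbours in this order whose libraries overlapped.

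With Y-320 the first 3 places were unchanged, with RELA at 50.4 ± 1.49, NFKBIA at 42.5 ± 2.33 and NFKB2 at 32.2 ± 0.734 CPM per kilobase. TNFAIP3 moved up to the fourth place, at 14.3 ± 0.503, where its libraries overlapped those of NFKBIB at 13.1 ± 0.714 CPM per kilobase. NFKB1 at 10.9 ± 0.638, REL at 9.15 ± 0.162, RELB at 8.68 ± 0.281, BIRC3 at 6.91 ± 0.260 and NFKBIE at 6.05 ± 0.164 CPM per kilobase followed. Several places below the third depended on the length used. With the summed length of all annotated exons in place of the canonical transcript, NFKB1 took place 8 in untreated cells and place 10 with Y-320, while RELA, NFKBIA and NFKB2 kept the first 3 places in both groups.

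The make-up of the subunit mRNAs differed between the groups. RELA made up 52.4%, 53.6% and 53.1% of the summed CPM per kilobase of the 5 subunits in untreated libraries and 46.3%, 44.5% and 44.9% in treated ones. NFKB2 took 18.9%, 18.4% and 18.5% in untreated libraries and 29.3%, 29.1% and 28.6% with Y-320. RELB took 3.06%, 2.78% and 2.16% in untreated libraries and 7.42%, 7.99% and 7.98% with Y-320. The shares of NFKB2 and RELB were thus larger in all treated libraries, and the share of RELA smaller, although RELA itself rose. NFKB1 went from 14.2% ± 0.122 to 9.76% ± 0.672 and REL from 11.5% ± 0.384 to 8.23% ± 0.187 (SD, n = 3). The sum over the 5 subunits rose 1.77-fold, from 62.8 ± 0.593 to 111.3 ± 1.19 CPM per kilobase. In these bulk samples, more RNA per cell and more cells with the RNA cannot be told apart.

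**Figure D3:**
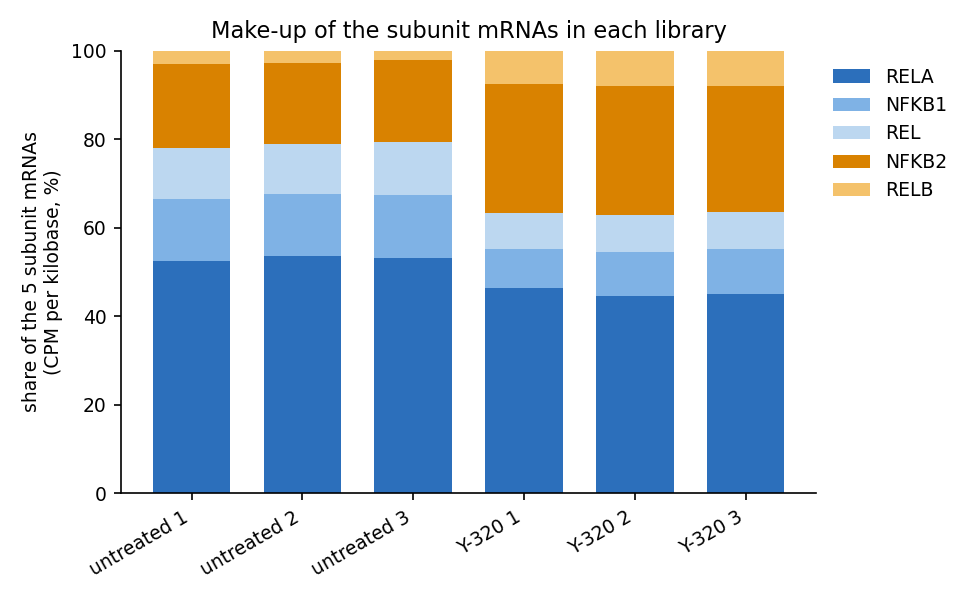
Share of each subunit gene in the summed CPM per kilobase of the 5 subunits (%, stacked bars from 0 to 100), for each of the 3 untreated and 3 Y-320 libraries. NFKB2 and RELB (orange shades) together take more of each treated bar than of any untreated bar, and RELA, NFKB1 and REL (blue shades) take less.

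Ratios between pairs of genes showed the same per library. NFKB2 to NFKB1 was 1.34, 1.30 and 1.29 in untreated libraries and 3.25, 2.90 and 2.78 with Y-320, which was 2.27-fold higher by the group means. RELB to RELA was 0.0585, 0.0518 and 0.0407 in untreated libraries and 0.160, 0.179 and 0.178 with Y-320, 3.43-fold higher. The ratio of the inhibitor NFKBIA to its main target RELA was 0.740, 0.620 and 0.660 in untreated libraries and 0.863, 0.855 and 0.813 with Y-320. It was 1.25-fold higher, and its groups did not overlap either.

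Summed over the 3 classical IkB genes, with canonical transcript lengths and the deposited rows, the inhibitor and subunit mRNAs rose by the same factor. The IkB sum went from 34.8 ± 1.84 to 61.6 ± 3.08 CPM per kilobase, a 1.77-fold rise. The ratio of IkB to subunit mRNA was 0.586, 0.525 and 0.549 in untreated libraries and 0.578, 0.547 and 0.536 with Y-320, so the groups overlapped and both means were 0.553. NFKBIA made up 64.4% of the IkB sum in untreated cells and 68.98% with Y-320, NFKBIB 27.1% and 21.2%, and NFKBIE 8.47% and 9.82%, and for none of the 3 did the groups overlap. With the second row of NFKBIB added to the first, the IkB to subunit ratio was 0.703 ± 0.0289 in the untreated group and 0.671 ± 0.0263 in the treated group, and the groups still overlapped.

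**Figure D4:**
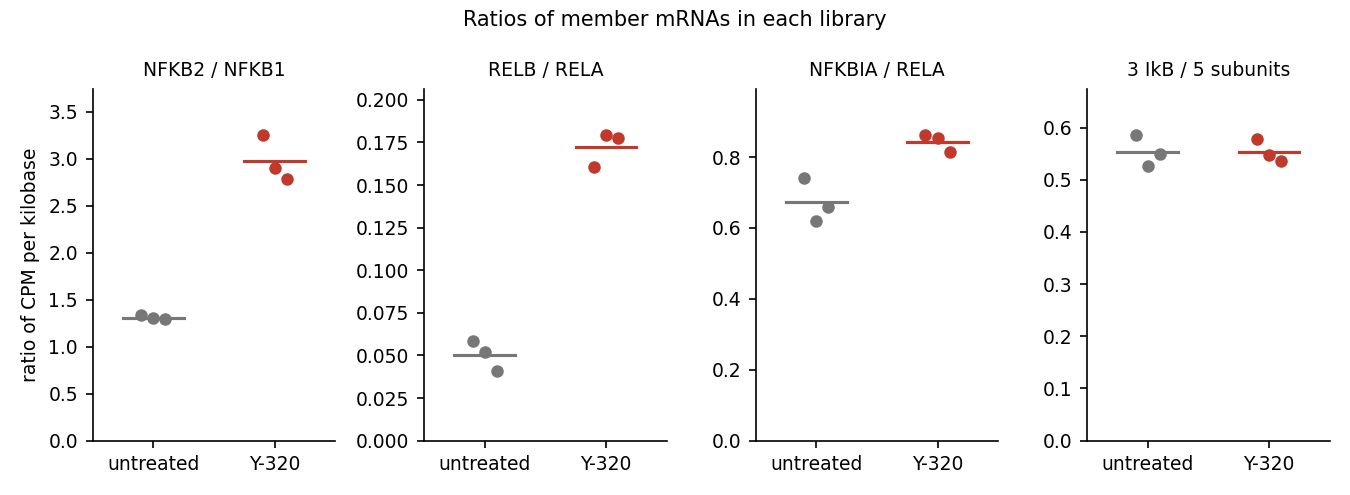
Ratios of CPM per kilobase (linear axes from 0) in each untreated (grey) and Y-320 (red) library, with lines at group means, for NFKB2 to NFKB1, RELB to RELA, NFKBIA to RELA and the 3 IkB genes to the 5 subunits. The first 3 ratios separate the groups, and the last has a mean of 0.553 in both.

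Other NF-kB pathway genes, among them kinases, adaptors, ubiquitin enzymes and known targets, had smaller log2 fold changes by the median. The 8 lists of other NF-kB pathway genes held 61 genes, of which 56 were tested, and 32 were higher, 8 lower and 16 not past the threshold. Their median log2 fold change was 0.15, and their range was -0.52 to 1.93. The background was again 26.2% of all genes higher and 25.4% lower.

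Of the IKK complex, which phosphorylates IkB, CHUK (IKK alpha) went from 24.4 to 27.1 CPM, with a log2 fold change of 0.15 (SE 0.057, edgeR adjusted p = 0.0471) and overlapping groups. IKBKB (IKK beta) was at 21.6 and 23.7 CPM and IKBKG (NEMO) at 27.7 and 26.8 CPM, with edgeR adjusted p of 0.107 and 0.372. Part of the sequence of IKBKG also occurs in a pseudogene. MAP3K14, which encodes NIK, rose from 35.2 to 38.8 CPM, a log2 fold change of 0.14 (SE 0.039, edgeR adjusted p = 0.0130). Other genes share 13.1% of its 31-base words, and an antisense gene shares the most. The partners that degrade NIK rose as well, TRAF2 by a log2 fold change of 0.42 (SE 0.042, edgeR adjusted p = 1.44e-05) and TRAF3 by 0.27 (SE 0.038, edgeR adjusted p = 1.78e-04). All 4 genes of the NIK list, BIRC2 included, thus rose, each by less than the non-canonical members. A rise that passed the test was found for 26.2% of all genes.

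Of LUBAC, the ligase that builds linear ubiquitin chains on NEMO, SHARPIN and RBCK1 rose by log2 fold changes of 0.35 and 0.29 (edgeR adjusted p = 1.24e-05 and 1.68e-04). The catalytic subunit RNF31 was at 27.2 and 28.3 CPM (edgeR adjusted p = 0.327). Its row has an identical unnamed twin too, and 52.6% of its 31-base words also occur in other genes, so its level is uncertain. Of the 13 canonical upstream adaptors and kinases, 6 were higher and 2 lower, beside 26.2% and 25.4% of all genes tested. IRAK2, a kinase of interleukin-1 and Toll-like receptor signaling, rose 3.81-fold, from 9.95 to 37.9 CPM (log2 fold change 1.93, SE 0.065, edgeR adjusted p = 6.24e-09). RIPK1 and TRADD, which act at the tumor necrosis factor receptor, rose by 0.36 and 0.29 on the log2 scale (edgeR adjusted p = 6.73e-05 and 0.00143), and TRAF5 fell by 0.37 (edgeR adjusted p = 0.0210).

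Of 11 tested deubiquitinases and other brakes, 7 were higher and none was lower, beside 26.2% and 25.4% of all genes tested. TNIP1, which binds A20, rose 2.02-fold, from 180.5 to 365.3 CPM (log2 fold change 1.02, SE 0.032, edgeR adjusted p = 4.01e-09). CYLD, which removes ubiquitin chains from signaling complexes, rose from 35.1 to 61.7 CPM (log2 fold change 0.81, SE 0.039, edgeR adjusted p = 7.05e-08). ZC3H12A and OTUD7B each rose by 0.30 (edgeR adjusted p = 0.0115 and 9.30e-05).

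The nuclear IkB genes moved apart. BCL3, a co-activator for p50 and p52 dimers, rose from 26.1 to 38.5 CPM (log2 fold change 0.56, SE 0.047, edgeR adjusted p = 3.57e-06), whereas NFKBIZ, which encodes IkB zeta, fell from 19.1 to 14.1 CPM (log2 fold change -0.44, SE 0.060, edgeR adjusted p = 1.41e-04). NFKBID was low, at 2.53 and 3.37 CPM, and passed the threshold narrowly (log2 fold change 0.42, SE 0.16, edgeR adjusted p = 0.0489). Of the 5 IKK-related kinases and their adaptors, 2 were higher and 3 lower, beside 26.2% and 25.4% of all genes tested. TBKBP1, TBK1 and TANK fell, by 0.52, 0.28 and 0.17 on the log2 scale (edgeR adjusted p = 6.53e-05, 8.48e-04 and 0.0219). IKBKE rose by 0.24 and AZI2 by 0.14 (edgeR adjusted p = 0.0336 and 0.0104).

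The list of other NF-kB target genes holds no chemokine genes, many of which are also known targets, so its counts do not cover them. Of 14 tested, 8 were higher, 2 lower and 4 not past the threshold, with a median log2 fold change of 0.16. Over all genes tested, 26.2% were higher and 25.4% lower. TRAF1, an adaptor that binds cIAP proteins, rose 1.77-fold, from 4.32 to 7.64 CPM (log2 fold change 0.82, SE 0.105, edgeR adjusted p = 8.80e-05). The adhesion molecule ICAM1 and the syndecan SDC4 each rose by 0.57 (edgeR adjusted p = 4.13e-06 and 1.01e-07), PLAU by 0.29 and JUNB by 0.27, while TNFAIP2 fell by 0.33 (edgeR adjusted p = 3.19e-05, 2.61e-05 and 3.71e-06).

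**Figure D5:**
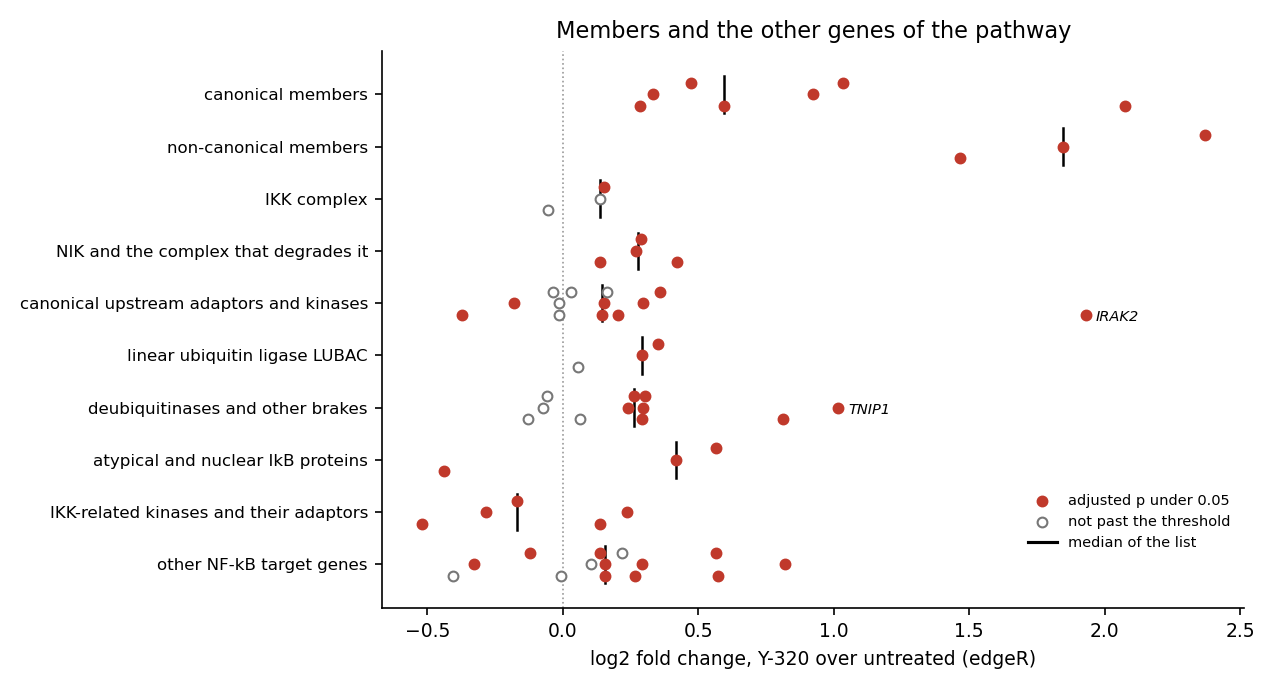
Log2 fold changes, Y-320 over untreated, of the canonical and non-canonical members and of 8 lists of other pathway genes, with 1 point per gene, filled where the edgeR adjusted p was under 0.05, and a bar at each list's median. The genes of the other lists lie between -0.52 and 1.93, and the highest among them are IRAK2 at 1.93 and TNIP1 at 1.02.

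The libraries showed the markers of an epithelial line. The 6 epithelial markers summed to 10916 to 11425 CPM in untreated and to 6834 to 6895 CPM in treated libraries, and none was at 0. The keratins KRT7, KRT8, KRT18 and KRT19 made up most of this sum and were all lower in the treated libraries. EPCAM went the other way, from 310.0, 306.7 and 296.8 CPM to 406.4, 390.9 and 390.8 CPM, and CDH1 was at 321.4, 330.1 and 323.4 CPM in untreated and at 304.0, 306.2 and 294.5 CPM in treated libraries. The 4 leukocyte markers summed to 1.22 to 1.77 CPM in untreated and to 1.44 to 1.73 CPM in treated libraries. MS4A1 was at 0 in all libraries, and PTPRC and CD3E were under 1 CPM. Within this low sum CD14 was higher in all treated libraries (0.544 to 0.863 CPM untreated, 0.903 to 1.18 CPM treated). PTPRC was lower (0.636 to 0.906 and 0.443 to 0.586 CPM). The 2 fibroblast markers summed to 57.1 to 68.3 CPM in untreated and to 31.2 to 37.6 CPM in treated libraries, and the 3 endothelial markers to 17.5 to 18.9 and 13.8 to 18.0 CPM. Within the endothelial sum PECAM1 was higher in all treated libraries (3.61 to 4.19 CPM untreated, 7.46 to 11.6 CPM treated), CDH5 was lower (12.4 to 14.3 and 5.47 to 5.60 CPM), and VWF was under 1 CPM throughout. The keratins, CDH1, PTPRC, both fibroblast markers and CDH5 were thus lower in the libraries in which the NF-kB genes were higher. EPCAM, CD14 and PECAM1 were higher in those libraries. The part of these markers in the results above was not tested. Depth was similar in all libraries, at 21045401 to 22740535 counts, and a single count was worth 0.0440 to 0.0475 CPM.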

How the data were processed

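RNA of HDQ-P1 cells was sequenced on an Illumina NextSeq 500. The authors deposited estimated counts per gene (expected counts, not normalized) for all 6 libraries, and the submitters' processing notes name kallisto 0.46.1 and the hg38 (GRCh38) build. The Ensembl release, the strand setting and the pipelines that the study combined are not given in the sources used here, so a standard test for counts replaced the latter. Of the deposited values, 40.1% were not whole (by more than 0.001), because kallisto splits a read that fits more than 1 transcript, and they were rounded.

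Of 40295 rows, 35390 matched a gene name. After a filter on low counts (filterByExpr, minimum count 10, total 15), the 16580 genes left were TMM-scaled and tested with the quasi-likelihood model of edgeR 4.0.16 (R 4.3.3). No block was used, and a Benjamini-Hochberg adjusted p under 0.05 made a call. Intervals are 95% intervals. CPM are TMM-scaled, and log2 CPM used a prior count of 2. Positions and lengths came from GENCODE 44, promoters from RefSeq. On simulated data with 200 changed genes among 16393, 92% were called in the right direction, and 4.66% of the calls were unchanged genes. The simulation gave all genes the same dispersion and changed a far smaller share of genes than was called here. Its smallest change was larger than the rises of NFKB1, REL and NFKBIB. These rates therefore need not hold for the calls in the real data. limma 3.58.1 (voom), DESeq2 1.42.0, other filters and scalings, unrounded counts, a stricter threshold of 0.01, a replicate block and leaving out each library were the alternatives. Tables were made with pandas 2.3.3 and numpy 2.4.6 and plots with matplotlib 3.10.9, in Python 3.11.15.

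Replicates of a group differed by more than counting noise (chi-square over degrees of freedom at least 2.02), so none was an exact copy of another. Because the counts are estimates with split reads, this cannot tell technical replicates from separate cultures. Each count of 0 allows up to 3 counts, a limit that covers counting error only. The members, the pathway lists and their split into canonical and non-canonical parts were chosen with earlier results of these data known. The rule for names took all members, all genes of the IKK, NIK, LUBAC and nuclear IkB lists, and of each other list at most 4 genes past the threshold with a mean of at least 1 CPM and the largest absolute log2 fold changes (6 of the NF-kB targets). SOD2, TNIP3, VCAM1, IER3 and BCL2A1 are in the lists and were not tested. BIRC2 and SIRT2 are named beside members, and AZI2 is named to complete its list.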

Additional observations from a re-analysis of the deposited data

How the results depend on the processing

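Each of the 10 genes kept its direction and its call in all 14 alternatives run for it (140 values), with a largest adjusted p of 3.12e-03, for NFKB1. Over all genes the alternatives at the same threshold called 3817 to 4539 higher and 3677 to 4746 lower, against 4336 and 4210, and an adjusted p under 0.01 called 3374 and 3166. The log2 fold changes ranged from 0.26 to 0.33 for NFKB1 and from 2.23 to 2.48 for RELB. The shift between non-canonical and canonical members, 1.07, was 0.96 from summed CPM and 1.28 without TNFAIP3, which moved it by more than the spread between libraries because TNFAIP3 is the canonical member with the largest rise. Leaving out each library gave 1.01 to 1.11. The versions without TNFAIP3, with the NFKBIB rows summed and with exon-union lengths were chosen after seeing the data. The IkB to subunit ratio, with a mean of 0.553 in both groups, differed between them by -0.03 with the NFKBIB rows summed and by -0.03 with exon-union lengths. Both versions moved the difference by more than the spread between libraries, though the groups still overlapped in each. Library-size and upper-quartile scaling moved the median of all genes by 0.013 and -0.029.

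The replicate numbers are shared by both groups, but the correlations of same-numbered libraries were -0.0024, 0.015 and 0.0022. Those of differently numbered libraries ran from -0.044 to 0.040, so the values showed no pairing by number. They cannot tell whether same-numbered libraries were prepared together. With the replicate block, all 10 genes stayed higher (NFKB1 at 0.28, adjusted p = 8.27e-04; RELB at 2.37), and 4285 genes were higher and 4159 lower. Levels of RELB in untreated cells rest on as few as 67 counts, and levels of NFKBIB and REL on rows or sequence shared with other genes.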
